A study of Homo sapiens with 12 samples.

Results

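Collagens are proteins in which chains of Gly-X-Y repeats wind into a triple helix, and each chain is the product of its own gene. The genes were taken by symbol, as every row of the deposited table whose whole name is COL, a number, the letter A and a number, which gave 44 collagen chain genes among 28901 named genes. Of the 44, 40 had at least 10 counts over the 12 libraries and were tested, and 23 averaged 50 counts per library or more. COL22A1 and COL20A1, at 6 and 5 counts in all 12 libraries together, and COL26A1 and COL6A5, at 0, were not tested.

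RNA-seq was performed at day 14 of adipocyte differentiation on ASC52telo hTERT, a telomerase-immortalized line of human adipose stromal cells labelled wild type. All cells carried a lentiviral shRNA vector with ZsGreen and had been sorted for ZsGreen before differentiation. The shRNA was scramble (scramble control) or directed at linc-ADAIN, an adipose lincRNA (linc-ADAIN KD), and cells of each kind were left without LPS or given LPS, a bacterial lipopolysaccharide that activates Toll-like receptor signalling, at 100 ng/mL for 4 h. Each of the 4 groups had 3 libraries of polyA RNA. All groups received the same differentiation medium, which held rosiglitazone, a PPARγ agonist, in its first stage, and all come from 1 line with 1 shRNA directed at linc-ADAIN, so an effect of this hairpin and an effect of the lincRNA cannot be told apart. How much linc-ADAIN the cells held was not analysed here.

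Fibril-forming collagens build the rope-like fibers of connective tissue. Type IV collagen forms the sheet of the basement membrane that surrounds each mature adipocyte, type VI forms beaded microfilaments that link that membrane to the fibers around it and is abundant in adipose tissue, and FACIT collagens sit on the surface of fibrils. Many types are heterotrimers, so that the genes of partner chains are read together below.

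Libraries held 28.4 to 53.8 M counts on named genes (M, units of 1e6), and collagen chain genes took 2.01% to 2.61% of them. Values per library are CPM, counts per 1e6 named counts after edgeR's TMM scaling of library sizes. Differences between groups are log2 fold changes with a standard error (SE) and an adjusted p from edgeR's quasi-likelihood F test, fitted on all 12 libraries and adjusted by Benjamini-Hochberg over 17173 genes. A gene was called at an adjusted p under 0.05. The study describes its RNA-seq as a single experiment with triplicates, so the p-values measure only the spread within that experiment, which may be technical. The libraries hold whole cultures, in which fewer cells of a type and less RNA per cell cannot be told apart. The adipocyte markers FABP4 and ADIPOQ were at 1980 ± 258 and 919 ± 208 CPM in scramble control (SD, n = 3), while LPL and LEP, also on the list of 13 adipocyte markers, were at 0.272 ± 0.238 and 0.22 ± 0.218 CPM (SD, n = 3).

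The start regions of 4 chain genes are shown here because they belong to members with large changes with KD, and because COL4A1 and COL4A2, the partner chains of the basement membrane heterotrimer, start next to each other. RefSeq places the start of COL4A1 at position 110307157 of chromosome 13 on the minus strand and that of COL4A2 at 110307284 on the plus strand, 127 bases away. The COL4A2 gene as GENCODE annotates it begins earlier, at 110305812, inside the COL4A1 gene, so the annotated genes overlap at their 5′ ends. Windows of 250 bases before to 50 bases after each start (RefSeq, GRCh38.p14) were found for 32 of the 44 genes. Those of COL4A1 and COL4A2 share 226 bases, read on opposite strands, and consist of G and C to 76.7% and 77.7%, against a median of 58.7% over all 35116 windows. Capitals mark matches on either strand to the letters of the CCAAT box, to the GC box letters, spelled GGGCGG, and to the TATA box letters, spelled TATAAA, and a match on the other strand appears as its reverse complement. The sequences run 5′ to 3′ on the strand of the gene. The COL18A1 window lies inside the gene as GENCODE annotates it, which begins at 45405165. The counts of COL18A1 can therefore include transcripts from an earlier start than the one shown.
COL4A1, chr13:110307108-110307407, strand -: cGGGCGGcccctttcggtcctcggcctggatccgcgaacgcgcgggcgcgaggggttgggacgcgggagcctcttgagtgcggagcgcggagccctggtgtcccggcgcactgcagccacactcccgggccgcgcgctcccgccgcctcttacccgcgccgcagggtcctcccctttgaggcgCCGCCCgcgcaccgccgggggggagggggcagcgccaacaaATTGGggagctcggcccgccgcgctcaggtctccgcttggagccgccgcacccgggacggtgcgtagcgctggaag
COL4A2, chr13:110307034-110307333, strand +: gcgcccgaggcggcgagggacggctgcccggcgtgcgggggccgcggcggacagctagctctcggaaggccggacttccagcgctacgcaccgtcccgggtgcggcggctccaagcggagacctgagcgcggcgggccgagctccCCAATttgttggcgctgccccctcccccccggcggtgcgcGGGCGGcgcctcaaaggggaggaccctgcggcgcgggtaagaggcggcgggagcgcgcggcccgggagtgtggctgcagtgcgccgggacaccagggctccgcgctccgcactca
COL18A1, chr21:45455272-45455571, strand +: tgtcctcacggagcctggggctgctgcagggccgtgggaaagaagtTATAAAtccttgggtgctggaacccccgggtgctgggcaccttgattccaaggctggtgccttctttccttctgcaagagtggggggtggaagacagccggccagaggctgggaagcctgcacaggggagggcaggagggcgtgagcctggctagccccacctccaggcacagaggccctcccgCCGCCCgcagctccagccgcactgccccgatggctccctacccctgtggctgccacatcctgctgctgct
COL11A1, chr1:103108473-103108772, strand -: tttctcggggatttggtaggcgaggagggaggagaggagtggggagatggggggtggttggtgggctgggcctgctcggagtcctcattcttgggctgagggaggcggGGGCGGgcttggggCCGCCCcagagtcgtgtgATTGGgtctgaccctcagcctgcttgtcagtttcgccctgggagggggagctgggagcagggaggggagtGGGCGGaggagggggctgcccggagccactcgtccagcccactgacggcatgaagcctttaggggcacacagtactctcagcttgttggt

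The shared stretch between COL4A1 and COL4A2 holds 1 CCAAT, which appears in both windows. CCAAT was in 10 of the 32 collagen windows and in 34.6% of all windows, GGGCGG was in 19 of 32 and in 45% of all, and TATAAA was in 7 of 32 and in 11.5% of all. The letters TGANTCA and CACGTG, searched on both strands as well, were in 0 of the 32 windows and in 7.71% and 7.26% of all. A match in such a window is a description of the letters and not a site in use. The 12 members without a window are not covered by these shares, and COL6A1, COL3A1, COL1A2, COL1A1, COL5A2 and COL8A1 are among them. COL4A4 and COL4A3 on chromosome 2 also lie head to head, with RefSeq starts 419 bases apart, and COL4A6 and COL4A5 on chromosome X start 1416 bases apart.

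Type VI chains dominated the collagen mRNA pool. Levels of different genes were compared per kilobase (kb) of the canonical GENCODE transcript, as CPM per kb over the 12 libraries, where COL6A1 was at 941, COL6A2 at 777 and COL6A3 at 539. These were the genes at ranks 64, 89 and 123 of 19713 genes with a count and a length. The interstitial chains COL3A1 (340), COL1A2 (316) and COL1A1 (214), the FACIT chain COL12A1 (243), the basement membrane chains COL4A1 (137) and COL4A2 (107) and the fibril chain COL5A2 (104) completed the 10 highest on the same scale. With the median length of a gene's coding transcripts in place of the canonical one, 9 of these 10 remained and COL16A1 took the place of COL5A2. Type VI chains still held ranks 1 to 3 among the members, but the order below them changed. COL4A1 and COL4A2 then stood at ranks 4 and 6, above COL3A1 and COL1A2 at ranks 9 and 10. At the low end, 17 tested members had a mean under 50 counts per library, among them all 4 transmembrane chains and the 3 chains of type IX, a cartilage collagen.

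The pool changed in make-up with KD. The summed level of all members was 26120 ± 498 CPM in the scramble group and 21620 ± 1660 CPM in KD, and with LPS 26240 ± 1120 CPM in the scramble group and 20460 ± 616 CPM in KD (SD, n = 3 each). Without LPS the 3 KD libraries summed to 20910, 20430 and 23510 CPM and the 3 scramble libraries to 26180, 26580 and 25590 CPM, with no overlap. The log2 difference of the group means was -0.273, and -0.165 with library totals in place of TMM, where the members took 2.17%, 2.18% and 2.47% of the counts in KD and 2.56%, 2.61% and 2.48% in scramble control. As sums per kb, beaded filament (type VI) chains went from 2894 ± 27.4 in scramble control to 1774 ± 161 in KD and network-forming chains from 377 ± 9.7 to 162.9 ± 4.7, whereas fibril-forming chains went from 950 ± 93.2 to 1157 ± 123 and FACIT chains from 266.4 ± 13.5 to 338.8 ± 32.9 (SD, n = 3 each). COL6A1 made up 27.6% ± 1.23 of the pool per kb in scramble control and 19.1% ± 1.08 in KD, while COL3A1 made up 5.79% ± 0.515 and 10.9% ± 0.298 (SD, n = 3 each). These sums are descriptions, and no test was run on them.

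**Figure D1:**
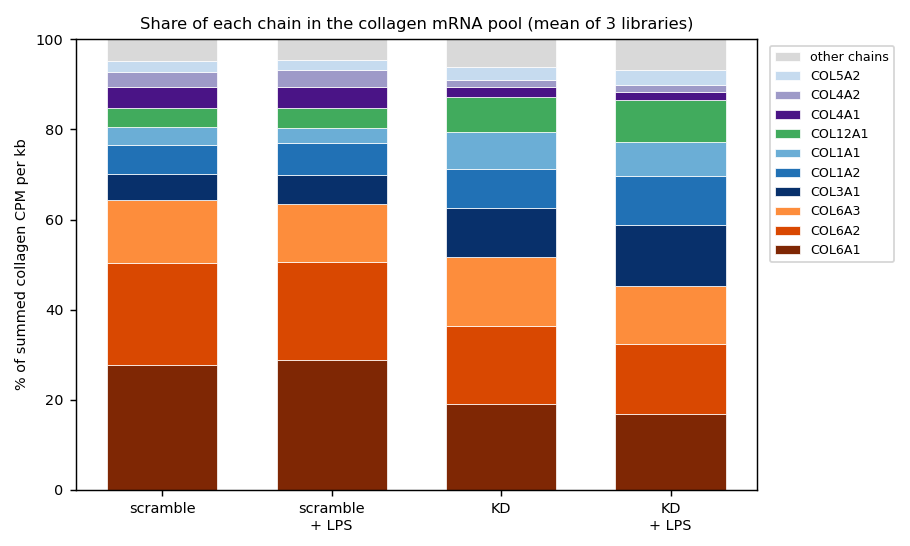
Share of each of the 10 highest chain genes, and of all other chains together, in the summed collagen CPM per kb (vertical axis, percent), as the mean of 3 libraries in each of the 4 groups (horizontal axis). Without LPS, COL6A1 goes from 27.6% in the scramble group to 19.1% in KD and COL6A2 from 22.8% to 17.2%, COL6A3 is at 14% and 15.3%, and COL3A1 goes from 5.79% to 10.9%.

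With KD and without LPS, 17 of the 40 tested chain genes were called, 6 higher and 11 lower. Among all genes tested, 11.2% were called higher and 14.3% lower. At least 2-fold, 3 members were higher and 6 lower, against 4.01% and 3.25% of all genes. With LPS in both groups, 16 of 40 were called, 5 higher (12.7% of all genes) and 11 lower (14.1%), and at least 2-fold 2 were higher (4.49%) and 7 lower (3.81%). The 16 genes called with LPS were all among the 17 called without it, in the same direction, and they are 94.1% of the list without LPS and 100% of the list with LPS. Among all genes tested, 3169 were called in both comparisons, 3148 of them in the same direction. They are 72.4% of the list without LPS and 68.7% of the list with LPS. The KD groups lay wholly above or below scramble control for 21 of the 40 members without LPS (40.3% of all genes) and for 22 with LPS (37.9%). The median log2 fold change of the 40 members without LPS was -0.10 and that of all genes tested was 0.012.

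**Figure D2:**
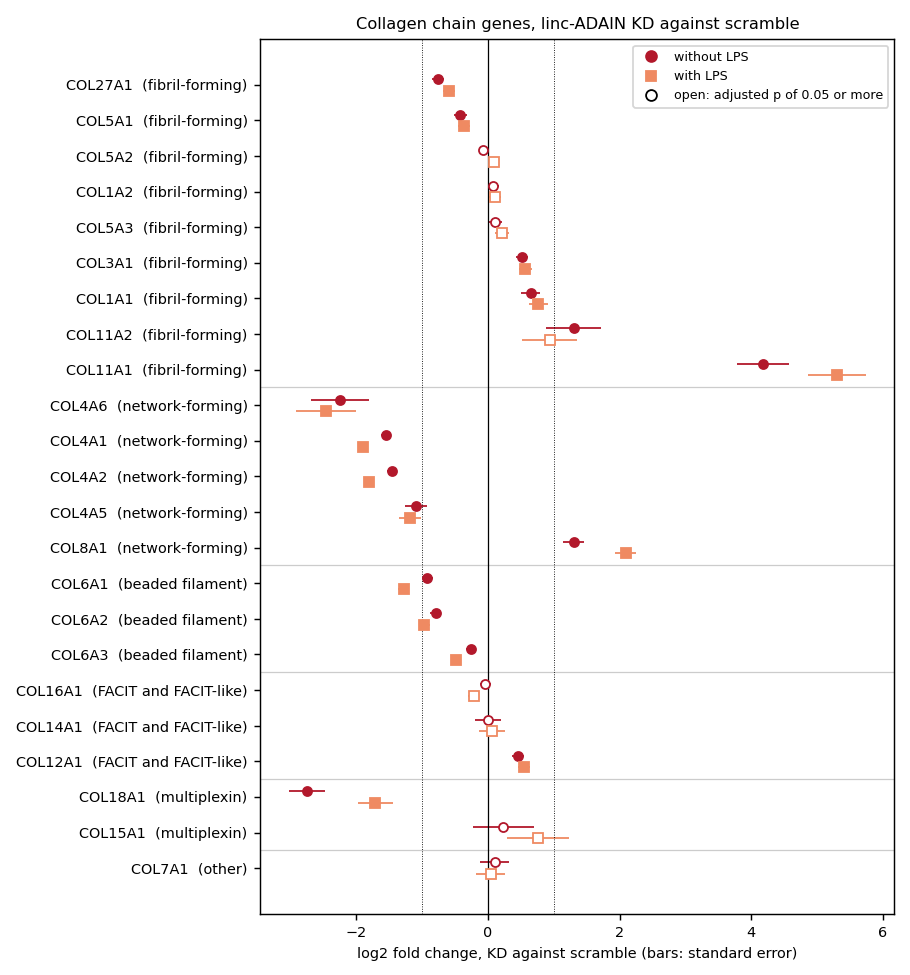
Log2 fold change of linc-ADAIN KD against scramble control (horizontal axis, bars show the standard error) for the 23 chain genes with an average of 50 counts or more, grouped by class, without LPS (circles) and with LPS (squares), with open symbols for an adjusted p of 0.05 or more and dotted lines at 2-fold. All 4 type IV chains and all 3 type VI chains shown lie below 0 in both comparisons, and COL11A1, at 4.18 and 5.30, lies farthest above it.

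Basement membrane type IV chains were lower with KD. COL4A1 and COL4A2 encode the chains of the common type IV heterotrimer, and COL4A5 and COL4A6 those of rarer networks, and these 4 were called while COL4A3 and COL4A4, at 10 and 190 counts in all, were not. COL4A1 (chromosome 13, 110148963 to 110307157, GRCh38) was at 1330, 1260 and 1390 CPM in the scramble group and at 483, 449 and 432 CPM in KD. Its log2 fold change was -1.55 (SE 0.074, adjusted p = 7.9e-11). COL4A2 (chromosome 13, 110305812 to 110513209) was at 1020, 978 and 1010 CPM in the scramble group and at 381, 337 and 375 CPM in KD, a log2 fold change of -1.46 (SE 0.073, adjusted p = 1.2e-10). The groups did not overlap for either gene, and the levels in KD were 2.92-fold lower for COL4A1 and 2.75-fold lower for COL4A2. From the same RNA-seq, the study itself also lists both genes as lower with KD. With LPS, COL4A1 was at 1350, 1430 and 1480 CPM in the scramble group and at 408, 357 and 377 CPM in KD, a log2 fold change of -1.90 (SE 0.075, adjusted p = 7.5e-12). COL4A2 with LPS was at 1000, 1160 and 1070 CPM against 304, 319 and 307 CPM, a log2 fold change of -1.80 (SE 0.074, adjusted p = 9.4e-12).

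The rarer type IV chains moved the same way at much lower levels. COL4A5 was at 12.1, 13.4 and 12.6 CPM in the scramble group and at 6.08, 6.37 and 5.48 CPM in KD, a log2 fold change of -1.09 (SE 0.17, adjusted p = 8.4e-05). COL4A6 was at 7.94, 18.6 and 19.8 CPM in the scramble group and at 5.01, 3.16 and 1.7 CPM in KD, a log2 fold change of -2.24 (SE 0.45, adjusted p = 0.0009). The groups did not overlap, but scramble replicate 1 was the lowest of its group for COL4A6, as was replicate 1 with LPS at 9.1 CPM beside 21.1 and 19.2 CPM. With LPS, COL4A5 and COL4A6 had log2 fold changes of -1.18 (SE 0.17, adjusted p = 3.2e-05) and -2.46 (SE 0.45, adjusted p = 0.00039).

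Type VIII, the other network-forming collagen detected at an average of 50 counts or more, went the opposite way through COL8A1. COL8A1, which encodes a short-chain collagen of vascular and corneal membranes, was at 84.3, 92.8 and 59.8 CPM in the scramble group and at 156, 196 and 232 CPM in KD. The lowest KD library exceeded the highest scramble library, and the log2 fold change was 1.30 (SE 0.16, adjusted p = 4.6e-06). With LPS the levels were 62.8, 68 and 62.4 CPM in the scramble group and 222, 285 and 318 CPM in KD, a log2 fold change of 2.09 (SE 0.16, adjusted p = 1.2e-08). Its partner COL8A2 had 94 counts in the 12 libraries together and was not called in any of the 4 comparisons, and neither was COL10A1, a chain of growth plate cartilage, with 259 counts.

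All 4 tested chains of type VI fell with KD, and they fell unequally. COL6A1 (chromosome 21, 45981770 to 46005050) was at 5080, 5210 and 5350 CPM in the scramble group and at 2890, 2430 and 2970 CPM in KD, a log2 fold change of -0.92 (SE 0.082, adjusted p = 1.3e-07). COL6A2, its neighbor on chromosome 21 (46098112 to 46132848), was at 3640, 3570 and 3380 CPM against 2100, 1780 and 2240 CPM, a log2 fold change of -0.79 (SE 0.083, adjusted p = 9.4e-07). COL6A3, on chromosome 2, encodes the longest chain of the heterotrimer, whose C-terminal fragment is endotrophin. Its levels were 6430, 6830 and 6600 CPM in the scramble group and 5370, 5310 and 5890 CPM in KD. Its log2 fold change of -0.26 (SE 0.065, adjusted p = 0.0055) was the smallest of the called members without LPS, and with library totals in place of TMM it was -0.15 with an adjusted p of 0.093. The groups did not overlap for any of the 3 chains.

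With LPS the same 3 chains had log2 fold changes of -1.28 (COL6A1, SE 0.083, adjusted p = 1.4e-09), -0.96 (COL6A2, SE 0.083, adjusted p = 6.3e-08) and -0.49 (COL6A3, SE 0.065, adjusted p = 1.4e-05). COL6A6, a chain that can take the place of COL6A3, was rare. It had 31, 50 and 9 counts in the scramble libraries and 1, 5 and 16 with LPS, and 0 in all 6 KD libraries. Against a floor of 3 counts per library, COL6A6 was at least 8.02-fold lower in KD without LPS (adjusted p = 0.0067) and at least 2.22-fold lower with LPS (adjusted p = 0.028). The value with LPS rested on scramble replicate 3 with LPS, which held 16 of the 22 counts and without which the mean was 1.12-fold above that floor. The call with LPS was kept in 7 of the 12 fits that left out 1 library, with adjusted p-values up to 0.098, and it was lost with the replicate number as a block and in a fit of the 6 libraries with LPS alone.

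**Figure D3:**
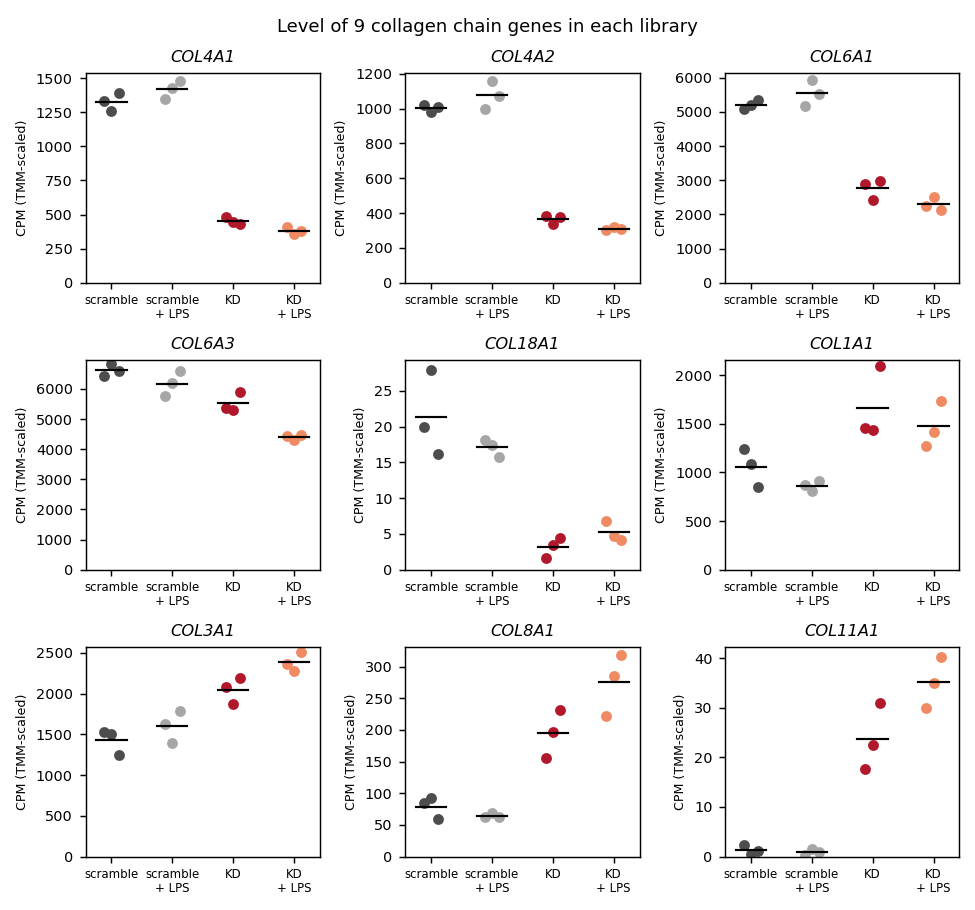
CPM after TMM scaling (vertical axes, linear from 0) of 9 chain genes in each of the 3 libraries (points) of the 4 groups (horizontal axes), with bars at the group means. COL4A1, COL4A2, COL6A1, COL6A3 and COL18A1 are lower in every KD library than in the scramble libraries of the same LPS state, and COL1A1, COL3A1, COL8A1 and COL11A1 are higher.

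Fibril-forming chains split. Of 11, 4 were called higher and 2 lower without LPS, and 3 and 2 with LPS. The shares over all genes tested were 11.2% higher and 14.3% lower without LPS, and 12.7% and 14.1% with LPS. COL11A1, a minor fibril chain of cartilage that is also made in fibrotic stroma, had the largest rise of the called members. It was at 2.39, 0.475 and 1.03 CPM in the scramble group and at 17.7, 22.5 and 30.9 CPM in KD, an 18.1-fold rise (log2 fold change 4.18, SE 0.40, adjusted p = 2.9e-07). With LPS it was at 0.358, 1.45 and 0.937 CPM in the scramble group and at 30, 35.1 and 40.3 CPM in KD, a log2 fold change of 5.30 (SE 0.43, adjusted p = 3.1e-08). The scramble libraries held 14 to 126 counts of COL11A1 and the KD libraries 613 to 1634. The size of the rise without LPS depended on scramble replicate 1, the highest of the scramble libraries, without which the log2 fold change was 4.99 (adjusted p = 5.4e-08).

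Its partner COL11A2 was at 1.16, 0.685 and 0.73 CPM in the scramble group and at 1.73, 1.69 and 2.96 CPM in KD, with no overlap. The log2 fold change was 1.31 (SE 0.42, adjusted p = 0.026). This call was lost in 3 of the 12 fits that left out 1 library, those without scramble replicate 2, scramble replicate 3 or KD replicate 3, with adjusted p-values up to 0.14. With LPS its log2 fold change was 0.94 (SE 0.41, adjusted p = 0.11).

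Among the abundant interstitial chains, COL1A1 and COL3A1 rose and COL1A2 was not called. COL1A1 (chromosome 17, 50184101 to 50201632) was at 1240, 1090 and 847 CPM in the scramble group and at 1460, 1440 and 2090 CPM in KD, a log2 fold change of 0.65 (SE 0.145, adjusted p = 0.0024). COL3A1, which forms a homotrimer, was at 1530, 1510 and 1250 CPM against 2080, 1870 and 2190 CPM, a log2 fold change of 0.52 (SE 0.094, adjusted p = 0.00038). In both the KD libraries lay above the scramble libraries, within 2-fold. COL1A2, the partner of COL1A1 in type I collagen, was at 1570, 1420 and 1330 CPM and at 1440, 1480 and 1680 CPM, groups that overlap, with a log2 fold change of 0.086 (SE 0.0896, adjusted p = 0.54). With LPS the log2 fold changes were 0.77 for COL1A1 (SE 0.145, adjusted p = 0.00051), 0.57 for COL3A1 (SE 0.094, adjusted p = 0.00013) and 0.11 for COL1A2 (SE 0.0896, adjusted p = 0.42).

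The regulatory fibril chains of type V, which enter type I fibrils and limit their width, behaved differently from each other. COL5A1 was at 720, 676 and 584 CPM in the scramble group and at 453, 456 and 574 CPM in KD, a log2 fold change of -0.42 (SE 0.095, adjusted p = 0.0029), and with LPS at -0.36 (SE 0.095, adjusted p = 0.0079). COL5A2, at 708, 761 and 661 CPM and at 666, 684 and 686 CPM, was not called, with a log2 fold change of -0.065 without LPS (SE 0.074, adjusted p = 0.58) and 0.099 with LPS (SE 0.074, adjusted p = 0.37). COL5A3, at 156, 199 and 188 CPM and at 206, 181 and 198 CPM, was not called either, at 0.11 (SE 0.104, adjusted p = 0.50) and 0.22 (SE 0.105, adjusted p = 0.14). COL27A1, a fibril chain of cartilage matrix, was at 107, 112 and 125 CPM in the scramble group and at 69.3, 60.4 and 73.8 CPM in KD. Its log2 fold change was -0.76 (SE 0.088, adjusted p = 3.4e-06) and with LPS -0.59 (SE 0.089, adjusted p = 5.6e-05). The other fibril chains were scarce, since COL24A1 had 216 counts in the 12 libraries and COL2A1, the cartilage chain, had 204, of which 190 were in scramble replicate 1.

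Of the FACIT and FACIT-like chains, 8 of 10 were tested and COL12A1 was the 1 called in the KD comparisons. COL12A1, a fibril-bound chain of tendon and dense connective tissue, was at 2150, 2400 and 2350 CPM in the scramble group and at 2730, 3360 and 3420 CPM in KD, with no overlap. Its log2 fold change was 0.46 (SE 0.089, adjusted p = 0.00065), and 0.55 with LPS (SE 0.089, adjusted p = 0.00012). COL16A1, at 361, 387 and 371 CPM and at 366, 338 and 388 CPM, had a log2 fold change of -0.036 without LPS (SE 0.085, adjusted p = 0.81) and -0.21 with LPS (SE 0.085, adjusted p = 0.078). COL14A1 was at 7.75 to 10 CPM in these 6 libraries and was not called, and COL9A1, COL9A2, COL9A3, COL19A1 and COL21A1 were at 21 to 534 counts in all 12 libraries, without a call.

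COL18A1, a basement membrane multiplexin whose C-terminal fragment is endostatin, had the largest fall among called members with an average of 50 counts or more. It lies on chromosome 21 from 45405165 to 45513720, and was at 19.9, 28 and 16.2 CPM in the scramble group and at 1.7, 3.42 and 4.39 CPM in KD. The groups stood far apart, with a log2 fold change of -2.74 (SE 0.275, adjusted p = 5.4e-07), a 6.68-fold difference. With LPS it was at 18.2, 17.5 and 15.8 CPM in the scramble group and at 6.87, 4.69 and 4.18 CPM in KD, a log2 fold change of -1.71 (SE 0.27, adjusted p = 7.4e-05), and there the falls of COL4A6, COL4A1 and COL4A2 were larger in size. SLC19A1, on the opposite strand, covers 28.9% of the exon bases of the canonical COL18A1 transcript, and although the library kit keeps strand, the sources used here do not say that the counting did. SLC19A1 was at 9.07 ± 0.656 CPM in the scramble group and 11.1 ± 1.24 CPM in KD (SD, n = 3), with a log2 fold change of 0.29 (adjusted p = 0.27). The other multiplexin, COL15A1, was at 1.27 ± 0.143 and 1.5 ± 0.916 CPM (SD, n = 3) and was not called.

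The remaining members gave no call in the KD comparisons. COL7A1, the anchoring fibril chain of skin, was at 7.57, 10 and 15 CPM in the scramble group and at 11.5, 9.8 and 13.8 CPM in KD, and COL28A1 had 200 counts. The 4 transmembrane chains COL13A1, COL17A1, COL23A1 and COL25A1 had 254, 11, 42 and 242 counts. COL23A1 had 0 counts in the 6 scramble libraries and 0, 3 and 11 in KD and 13, 10 and 5 in KD with LPS. Its adjusted p was 0.092 without LPS and 0.059 with LPS, where its mean CPM was at least 3.08-fold higher than a floor of 3 counts per library.

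Ratios of partner chains, as CPM per kb, show which heterotrimer genes kept step. COL4A1 to COL4A2 was 1.31 in scramble control and 1.23 in KD, and 1.3 and 1.21 with LPS, with libraries that overlap between groups. COL6A1 to COL6A2 was 1.21 in scramble control and 1.11 in KD. COL6A1 to COL6A3 was 1.97 in scramble control, at log2 ratios of 0.986, 0.935 and 1.02, and 1.25 in KD, at 0.429, 0.198 and 0.338. COL1A1 to COL1A2 went the other way, from 0.624 (log2 ratios -0.561, -0.607 and -0.875) to 0.92 (-0.193, -0.257 and 0.0894). This ratio was also lower with LPS, at 0.449 in scramble control (-1.28, -1.08 and -1.11) and 0.702 in KD (-0.681, -0.486 and -0.363). COL5A1 to COL5A2 was 0.751 in scramble control and 0.586 in KD. With LPS it was 0.693 and 0.502, COL6A1 to COL6A2 was 1.34 and 1.08, and COL6A1 to COL6A3 was 2.25 and 1.3. For all of these pairs but COL4A1 to COL4A2, the KD libraries lay wholly to 1 side of the scramble libraries without LPS, and the smallest two-sided p that an exact permutation test of 3 against 3 can give is 0.1.

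**Figure D4:**
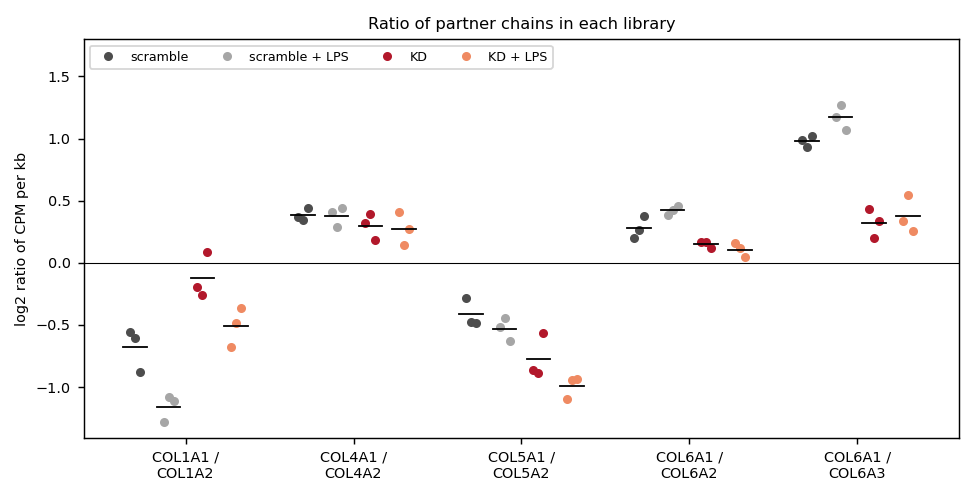
Log2 ratio of the CPM per kb of 5 pairs of partner chains (horizontal axis) in each library (points), colored by group, with bars at the group means. COL4A1 to COL4A2 stays between 0.14 and 0.444 in all 12 libraries, COL6A1 to COL6A3 is lower in KD, and COL1A1 to COL1A2 is higher in KD.

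Other markers moved with KD beside the collagens, and their part in the result was not tested. Of 13 adipocyte markers, 10 were lower with KD without LPS, with a summed level of 3670 to 5020 CPM in the scramble group and 805 to 2180 CPM in KD. Of all genes tested, 14.3% were called lower and 11.2% higher without LPS, and 14.1% lower with LPS. ADIPOQ, the adipocyte hormone adiponectin, was at 729, 887 and 1140 CPM in the scramble group and at 514, 392 and 142 CPM in KD (log2 fold change -1.40, SE 0.35, adjusted p = 0.0054). With LPS 11 of 13 were lower, at 4210 to 4970 CPM in the scramble group and 655 to 1400 CPM in KD. From qPCR and western blots at day 14, the study itself reported higher adipogenic markers with KD, among them FABP4 and adiponectin. It also reported more stored lipid with KD, by Nile red staining and triglyceride level, and more secreted adiponectin. The cause of the difference between these reports and the counts was not tested. Among the KD libraries, replicate 3 had the lowest ADIPOQ and the highest COL11A1, COL8A1, COL1A1 and COL3A1, both without LPS and with LPS, where ADIPOQ was at 352, 240 and 129 CPM and COL1A1 at 1270, 1420 and 1730 CPM. COL12A1 and COL11A2 were also highest in replicate 3 without LPS. With LPS they were highest in other replicates, with COL12A1 at 3280, 3660 and 3600 CPM and COL11A2 at 3.08, 1.87 and 1.9 CPM. Chains that fell with KD were mixed in KD replicate 3 without LPS. It was the highest KD library for COL6A1, COL6A2, COL6A3, COL5A1, COL27A1 and COL18A1 and the lowest for COL4A1, COL4A5 and COL4A6. With LPS, KD replicate 3 was the highest for COL6A3, COL5A1 and COL27A1 and the lowest for COL6A1, COL18A1 and COL4A6. Of 9 stromal progenitor markers, 7 were tested, and 2 were higher and 3 lower without LPS, with sums of 2990 to 3060 CPM and 2290 to 2340 CPM. PI16 was below 10 counts and DLK1 was at 0.

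Of 6 smooth muscle and myofibroblast markers, 4 were called lower with KD without LPS, against 14.3% of all genes tested. Sums of the 6 were 937 to 1070 CPM in the scramble group and 291 to 365 CPM in KD. With LPS these sums were 464 to 549 CPM and 162 to 240 CPM. TAGLN, a marker of contractile fibroblasts, was at 686, 859 and 753 CPM in the scramble group and at 228, 215 and 287 CPM in KD, a log2 fold change of -1.66 (SE 0.14, adjusted p = 5.8e-08). Markers of cells that should be absent were low beside the lists above. The endothelial sum in the scramble group was still close to the CPM of COL18A1. Of the 5 endothelial markers, 2 were called lower with KD without LPS, both at least 2-fold (3.25% of all genes tested). With LPS 3 were called lower and 1 higher, against 14.1% and 12.7% of all genes tested. The part of these markers in the result was not tested. The 5 endothelial markers summed to 23.6 to 27.1 CPM in the scramble group and 11.8 to 12.3 CPM in KD, with CDH5 at 0 to 0.0864 CPM in all libraries, the 5 leukocyte markers, of which CD68 made up most, to 51.9 to 57.8 CPM and 30.6 to 35.5 CPM, with PTPRC at 0 to 0.316 CPM in all libraries, and the 4 epithelial markers to 0 to 0.576 CPM in these 6 libraries, with KRT19 at 0.

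Genes that modify, fold, cut and cross-link collagen were also read. Of 37 such genes, all tested, 3 were called higher and 17 lower with KD without LPS, and 3 and 13 with LPS, with a median log2 fold change of -0.16 in each. Of all genes tested, 11.2% were called higher and 14.3% lower without LPS, and 12.7% and 14.1% with LPS. By step, 1 of 14 genes of prolyl and lysyl hydroxylation and sugar transfer was higher and 5 lower, 0 of 10 folding and export genes were higher and 7 lower, 0 of 8 propeptide cleavage genes were higher and 4 lower, and of 5 cross-linking enzymes 2 were higher and 1 lower. PCOLCE2, an enhancer of C-propeptide removal, had the largest fall of the list, from 169, 142 and 191 CPM in scramble control to 20, 19.8 and 12.6 CPM in KD (log2 fold change -3.26, SE 0.154, adjusted p = 6.7e-11). CREB3L1, a transcription factor of secretory cells that activates type I collagen genes in bone, was at 79.6, 84.6 and 63.3 CPM against 37, 32.5 and 44.6 CPM (log2 fold change -0.996, SE 0.128, adjusted p = 1e-05). CRTAP, a subunit of the prolyl hydroxylase complex, was at 840, 877 and 1010 CPM against 524, 487 and 483 CPM (log2 fold change -0.87, SE 0.073, adjusted p = 5.9e-08). LOXL4, a lysyl oxidase-like cross-linking enzyme, was higher, at 5.09, 9.74 and 7.28 CPM against 9.42, 12 and 20.1 CPM, groups that overlap (log2 fold change 0.91, SE 0.28, adjusted p = 0.023).

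Of 10 collagen receptor genes, 3 were called higher and 1 lower without LPS, and 4 and 1 with LPS. The shares over all genes tested were 11.2% higher and 14.3% lower without LPS, and 12.7% and 14.1% with LPS. ITGA11, the integrin chain that binds fibrillar collagen on fibroblasts, was at 2.28, 1.6 and 1.29 CPM in the scramble group and at 14.6, 16.3 and 24.6 CPM in KD, a log2 fold change of 3.42 (SE 0.29, adjusted p = 7.9e-08). ITGA10, another collagen-binding integrin chain, was at 7.18, 4.01 and 3.07 CPM against 9.54, 8.82 and 10.8 CPM, a log2 fold change of 1.03 (SE 0.26, adjusted p = 0.0057). The common partner ITGB1 had a log2 fold change of -0.16 (SE 0.074, adjusted p = 0.14).

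Fewer chain genes were called for LPS at 4 h than for linc-ADAIN KD. In scramble control, 3 of 40 were called, 1 higher (5.28% of all genes tested) and 2 lower (8.11%), and in KD 7 of 40 were called, 1 higher (5.21%) and 6 lower (6.59%), all within 2-fold. With library totals in place of TMM the split was 0 higher and 2 lower in scramble control and 0 higher and 7 lower in KD. COL27A1 and COL5A3 were lower with LPS in both. COL27A1 went from 107, 112 and 125 CPM to 71.4, 78.5 and 80.7 CPM in scramble control (log2 fold change -0.58, SE 0.088, adjusted p = 0.00016) and from 69.3, 60.4 and 73.8 CPM to 49.3, 51.4 and 52.7 CPM in KD (log2 fold change -0.41, SE 0.089, adjusted p = 0.0046). The libraries with and without LPS did not overlap for COL27A1 in either shRNA background, and both calls held in every fit tried.

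COL5A3, a type V chain, went from 156, 199 and 188 CPM to 111, 147 and 139 CPM in scramble control (log2 fold change -0.45, SE 0.105, adjusted p = 0.0067) and from 206, 181 and 198 CPM to 157, 161 and 144 CPM in KD (log2 fold change -0.34, SE 0.104, adjusted p = 0.041). The call in scramble control was lost without scramble replicate 2, at an adjusted p of 0.051, and that in KD was lost in 6 of the 12 fits that left out 1 library. COL16A1, a FACIT-like chain, was higher with LPS in scramble control, at 401, 505 and 449 CPM beside 361, 387 and 371 CPM without LPS (log2 fold change 0.28, SE 0.085, adjusted p = 0.037), and this call was lost in 5 of the 12 such fits, with adjusted p-values up to 0.18, and with library totals in place of TMM.

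In KD, COL8A1 was higher with LPS (log2 fold change 0.50, SE 0.15, adjusted p = 0.043) and COL6A3 (-0.33, SE 0.065, adjusted p = 0.0022), COL6A1 (-0.27, SE 0.081, adjusted p = 0.037), COL4A1 (-0.26, SE 0.073, adjusted p = 0.027) and COL4A2 (-0.23, SE 0.072, adjusted p = 0.043) were lower. COL6A3 stood at 5370, 5310 and 5890 CPM in KD and at 4450, 4300 and 4480 CPM in KD with LPS, with no overlap, and its call held in every fit. The call of COL8A1 was kept in 7 of the 12 fits that left out 1 library, with adjusted p-values up to 0.21, and was lost with library totals (adjusted p = 0.077), with edgeR's filterByExpr as the filter (0.051) and by DESeq2 (0.067). COL4A1 and COL6A1 kept their calls in 8 of the 12 fits and COL4A2 in 5. The count of 7 depended on single libraries. It was 2 without KD replicate 1 or KD replicate 3 with LPS, 3 without KD replicate 2 with LPS, and 4 without KD replicate 1 with LPS or scramble replicate 3 with LPS.

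**Figure D5:**
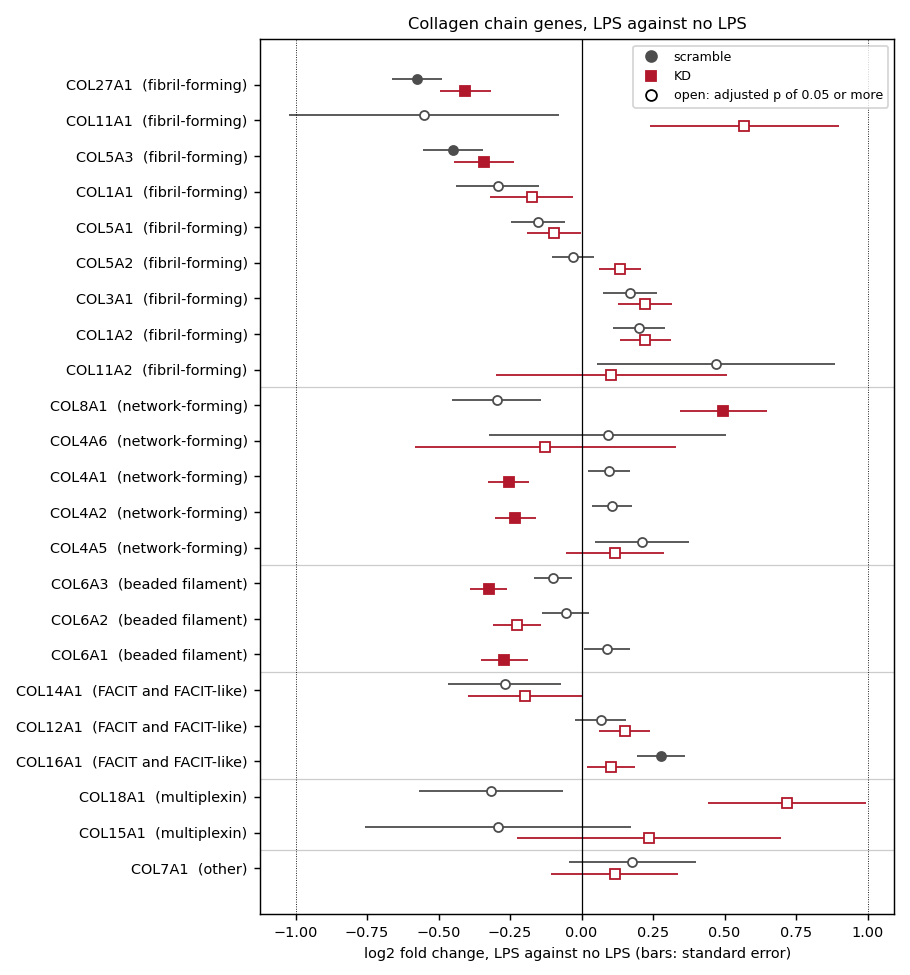
Log2 fold change of LPS against no LPS (horizontal axis, bars show the standard error) for the 23 chain genes with an average of 50 counts or more, grouped by class, in scramble control (circles) and in KD (squares), with open symbols for an adjusted p of 0.05 or more and dotted lines at 2-fold. COL27A1 and COL5A3 lie below 0 with filled symbols in both, and all points lie within 2-fold.

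Whether the change with KD differed between cells with and without LPS was tested as an interaction, and 0 of 40 members were called by edgeR, against 0.943% of all genes above 0 and 0.332% below. At an unadjusted p under 0.05 there were 6 members (15%), beside 1907 of all genes tested (11.1%). The interaction of COL8A1 was 0.79 on the log2 scale (SE 0.22, adjusted p = 0.098), that of COL4A1 -0.35 (SE 0.103, adjusted p = 0.12), that of COL4A2 -0.34 (SE 0.101, adjusted p = 0.13) and that of COL6A1 -0.36 (SE 0.115, adjusted p = 0.17). COL6A3 was at -0.23 (SE 0.092, adjusted p = 0.35) and COL18A1 at 1.03 (SE 0.37, adjusted p = 0.25). DESeq2 called 3 of these, COL4A1 (adjusted p = 0.021), COL4A2 (0.018) and COL6A1 (0.049). COL8A1 was called by edgeR without the filter on low counts (adjusted p = 0.0044) and in 2 of the 12 fits that left out 1 library, and COL6A1 in 1 of them.

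Across the 4 groups at once, 22 of the 40 chain genes differed, against 40.8% of all genes tested. These were the 17 called with KD without LPS and COL16A1, COL5A3, COL1A2, COL2A1 and COL23A1. The call of COL1A2 (adjusted p = 0.04) was lost in 8 of the 12 fits that left out 1 library. That of COL23A1 (adjusted p = 0.043) was lost in 10 of them, with the replicate number as a block and with filterByExpr as the filter. That of COL16A1 was lost in 2 and with library totals, and that of COL11A2 in 4. The call of COL2A1 (adjusted p = 0.024) rested on the 190 counts in scramble replicate 1 and was lost without it, with filterByExpr and by DESeq2. COL5A2 (adjusted p = 0.46), COL7A1 (0.83) and COL14A1 (0.55) and COL15A1 (0.54) were the 4 members with an average of 50 counts or more that were not called.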

How the data were processed

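The authors pseudoaligned reads from stranded polyA libraries to GRCh38 transcripts with kallisto 0.44.0, a version named in the submitters' processing notes, and deposited estimated counts per gene name as whole numbers, not normalized for library size or length. The release of the annotation and the strand setting are not given in the sources used here. A row without a gene name held 0.235% to 0.306% of a library's counts and was left out. In R 4.3.3, genes with at least 10 counts over the 12 libraries were fitted with edgeR 4.0.16 as 4 group means, with TMM scaling, the quasi-likelihood F test and Benjamini-Hochberg adjustment. The standard error is the log2 fold change divided by the square root of F. DESeq2 1.42.0 and limma 3.58.1 were used for an alternative and within edgeR. The steps were tested on simulated data. Lengths and coordinates are from GENCODE release 44 on GRCh38, where 28647 of 28901 names matched. The chain genes, pathway lists and marker lists were chosen with earlier results of these data known. Values are given for the 10 chain genes highest per kb, up to 5 largest rises and falls in each comparison among called genes that averaged 50 counts or more, their partner chains, and the 3 largest pathway rises and falls. Same-numbered libraries deviated together in 5 of 18 pairs at a correlation over 0.1, and differently numbered ones in 5 of 36. The median correlations were 0.00063 and 0.0108. The numbers were not used as pairs in the main fit, and a fit with the number as a block is given below.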

Additional observations from a re-analysis of the deposited data

How the results depend on the processing

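The 17 calls with KD without LPS were 16 or 17 in every alternative, and the 16 with LPS were 15 to 18. Of 17 and 16 chain genes, 15 and 15 were called in every fit, and the exceptions were COL11A2, COL6A3 and COL6A6. The log2 difference of the summed collagen level between KD and scramble control under LPS was -0.359, and -0.277 with library totals in place of TMM, and without LPS it was -0.273 and -0.165. With library totals the median log2 fold change of all genes was 0.12 without LPS and 0.098 with LPS, beside 0.0117 and 0.0155 with TMM. With library totals the log2 fold change of COL16A1 without LPS was 0.072 and that of COL5A2 was 0.043, against -0.036 and -0.065, all uncalled. Leaving out 1 library moved that of COL16A1 between -0.077 and 0.017. The 7 calls for LPS in KD ranged from 2 to 7 with 1 library left out, and the 0 calls of the interaction from 0 to 1. The interaction gave 1 call without the filter on low counts and 3 by DESeq2. The cause of these changes was not tested. With the replicate number as a block, KD gave 17 calls without LPS and 15 with LPS, LPS gave 3 in scramble control and 6 in KD, where COL4A2 (log2 fold change -0.23) had an adjusted p of 0.059, and the interaction gave 0. Members under 50 counts are limited by depth.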
